A study of Mus musculus with 8 samples.

Results

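The genes of the Kv4 A-type potassium channel complex were examined in dorsal and ventral medial entorhinal cortex (MEC). The 9 genes were taken by symbol as the 3 Kv4 pore subunits (*Kcnd1*, *Kcnd2*, *Kcnd3*), the 4 Kv channel-interacting proteins or KChIPs (*Kcnip1* to *Kcnip4*) and the 2 DPP-like proteins (*Dpp6*, *Dpp10*), of 38553 genes in the deposited table. All 9 passed the filters for testing, as did 13674 genes in all. The 13 mice were 8-week-old males of the strain C57BL/6JolaHsd, with no treatment, transgene or deletion named in the labels. Each of the 4 dorsal and 4 ventral libraries holds microdissected tissue pooled from 3 or 4 of them, so that the error given is the spread of pools. Both regions came from the same 4 sets of mice, but which dorsal and ventral libraries share mice is not given, so they were compared unpaired and any variation that such libraries share stays in the error. As the labels state, the cDNA was amplified before sequencing. Expression is given as FPKM, by definition the fragments of a gene per exon length and per mapped fragments of the library. Levels can thus be set side by side between genes as far as exon length goes. Other gene-specific effects, such as those of amplification, are not corrected. In the deposited FPKM, the median over genes of each library's ratio to the mean of all libraries lay between 0.993 and 1.01. By that measure the libraries were already near the same level before any scaling here. The question was whether the parts of this channel differ along the dorsoventral axis, on which excitability and grid spacing are known to vary.

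Kv4 pore subunits assemble as tetramers that open at voltages below the spike threshold and inactivate within milliseconds, giving the somatodendritic A-type current that limits back-propagating spikes and delays firing. KChIPs are cytosolic EF-hand calcium sensors that bind the Kv4 N terminus, bring the channel to the membrane and alter its inactivation. DPP6 and DPP10 are membrane proteins related to dipeptidyl peptidases but without enzyme activity, and they also promote surface expression and speed gating.

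The regions of the libraries rest on values and not on column headers. The means over the 4 columns used as dorsal and the 4 used as ventral equalled the authors' regional means within 0.1% for 18621 of 18635 genes compared, and the next best of the 70 possible assignments matched 529. For dorsal libraries 2 and 4 and ventral libraries 1 and 3, numbered here in column order, the header carries the letter of the opposite region (4 of 8). Under the headers' regions neither *Kcnd3* nor *Kcnip2* was called, and the values are given in the closing section. Summed FPKM lay between 298763 in ventral library 1 and 341402 in dorsal library 4. The number of fragments sequenced is not analysed here. Markers of the labelled tissue were present: *Slc17a7*, the cortical vesicular glutamate transporter, had 107 ± 8.97 FPKM (SD, n = 4) dorsally and 105 ± 9.67 FPKM (SD, n = 4) ventrally, and *Reln*, made by layer II stellate cells, had 31.7 ± 2.62 and 35.8 ± 3.52 FPKM (SD, n = 4 each). The 3 choroid plexus markers, of which *Ttr* and *Folr1* were at or near 0, together stayed between 0.862 and 1.40 FPKM and the 3 dentate granule cell markers between 3.19 and 5.03 FPKM. Nearly all of the latter was *Prox1* (3.06 to 4.95 FPKM), whereas *C1ql2* had at most 0.318 and *Dsp* at most 0.164 FPKM.

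Of the 9 genes, *Kcnd3* and *Kcnip2* were higher in ventral MEC, 0 were called higher in dorsal MEC, and 7 did not pass the test. A gene was called at an adjusted p under 0.05 in limma, a linear model fitted to log2(FPKM + 1) over all 13674 genes, with a difference of at least 20% between the regional means. By this rule 198 genes (1.45%) were called higher ventrally (V>D) and 294 (2.15%) higher dorsally (D>V), 3.6% in all, and the share was also 3.6% with no threshold on the difference. With each library brought to the same summed FPKM the split was 201 V>D and 195 D>V. The log2(V/D) is the log2 of the ventral mean FPKM over the dorsal one. Its median was 0.042 over the 9 genes and −0.0050 over all genes tested. The libraries of the regions did not overlap for 2 of the 9 genes in the V>D direction (*Kcnd3* and *Kcnip2*), against 4.95% of all genes tested, and for 1 in the D>V direction (*Kcnd2*), against 6.17%.

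The windows around the RefSeq start sites (GRCm38.p6) of the Kv4 subunits with the clearest regional pattern, *Kcnd3* and *Kcnd2*, and of *Kcnip2*, which like *Kcnd3* was higher ventrally, are printed below, 250 bases before to 50 after the start, 5′ to 3′ on the gene's strand. Capitals mark GC boxes (GGGCGG or, on the other strand, CCGCCC). The *Kcnd3* window is chr3:105451640-105451939 (plus strand), that of *Kcnip2* is chr19:45816014-45816313 (minus strand) and that of *Kcnd2* is chr6:21215096-21215395 (plus strand), just before the start of the deposited gene model.
Kcnd3: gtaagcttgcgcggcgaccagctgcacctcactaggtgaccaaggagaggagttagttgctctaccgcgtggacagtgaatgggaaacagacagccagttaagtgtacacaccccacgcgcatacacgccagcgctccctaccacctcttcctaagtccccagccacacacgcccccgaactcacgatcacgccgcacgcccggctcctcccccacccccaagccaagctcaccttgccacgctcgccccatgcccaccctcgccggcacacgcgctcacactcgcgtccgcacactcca
Kcnip2: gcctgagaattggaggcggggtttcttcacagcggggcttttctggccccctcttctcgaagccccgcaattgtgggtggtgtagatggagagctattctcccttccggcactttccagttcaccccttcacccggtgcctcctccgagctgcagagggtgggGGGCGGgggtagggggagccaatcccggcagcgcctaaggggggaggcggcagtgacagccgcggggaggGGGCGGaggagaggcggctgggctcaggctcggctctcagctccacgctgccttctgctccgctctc
Kcnd2: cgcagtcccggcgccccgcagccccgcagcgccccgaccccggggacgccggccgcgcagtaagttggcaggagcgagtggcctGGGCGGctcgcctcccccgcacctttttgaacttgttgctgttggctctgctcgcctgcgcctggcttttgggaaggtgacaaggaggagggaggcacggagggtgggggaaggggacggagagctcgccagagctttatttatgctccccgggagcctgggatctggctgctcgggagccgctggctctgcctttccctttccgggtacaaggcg

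All 3 windows were rich in G and C, with 64.0% for *Kcnd3*, 67.0% for *Kcnip2* and 68.7% for *Kcnd2*, where the median of 32851 RefSeq windows of 300 bases was 52.7%. A GC box was found 2 times in the *Kcnip2* window, 1 time in that of *Kcnd2* and 0 times in that of *Kcnd3*, and in 35.7% of all windows. None of the 3 held a TATA box (TATAAA on either strand, in 13.6% of all windows) or a full cyclic AMP response element (TGACGTCA, in 1.79%). Each held 1 copy of GTCA on either strand, the core of the downstream regulatory element that the *Kcnip3* product binds. That short core, which the cyclic AMP element also contains, is in 85.2% of all windows. In all, 15 windows from 8 of the 9 genes were in the table.

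*Kcnd3* encodes Kv4.3, the Kv4 subunit found in many interneurons and in some principal cells. Its gene spans chromosome 3 from 105441595 to 105674002 in the deposited table (GRCm38), where the gene annotation starts it at 105452330. Its FPKM in dorsal libraries 1 to 4 was 13.6, 13.8, 13.0 and 15.5, and in ventral libraries 1 to 4 it was 18.5, 19.7, 17.8 and 19.2. Every ventral library thus lay above every dorsal one. The mean rose from 14.0 ± 1.04 FPKM (SD, n = 4) dorsally to 18.8 ± 0.804 FPKM (SD, n = 4) ventrally, 1.35-fold, with a log2(V/D) of 0.43. On the log2(FPKM + 1) scale the difference was 0.40 (standard error 0.07, 95% interval 0.25 to 0.56, adjusted p = 0.0102, limma). With each library left out in turn, *Kcnd3* was called in 8 of 8 fits, with adjusted p between 0.0103 and 0.0421 in limma. Exons of *Kcnd3* overlap *Kcnd3os* on the opposite strand, which had a mean of 0.499 FPKM over the 8 libraries. The sources used here do not say whether strand was kept.

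*Kcnd2* encodes Kv4.2, the main pore subunit of the A-type current in pyramidal cell dendrites, on chromosome 6 from 21215503 to 21729805. Its FPKM was 18.0, 17.4, 15.9 and 17.2 in dorsal libraries 1 to 4 and 14.7, 15.1, 13.7 and 14.1 in ventral libraries 1 to 4. The order of the regions was the opposite of that for *Kcnd3*, and the libraries again did not overlap. The regional means were 17.1 ± 0.892 and 14.4 ± 0.631 FPKM (SD, n = 4 each), with a log2(V/D) of −0.25, which is short of the 20% threshold (−0.263). The difference on the log2(FPKM + 1) scale was −0.24 (standard error 0.06, 95% interval −0.38 to −0.09), and it did not pass the test (adjusted p = 0.0776, limma).

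The third pore subunit, *Kcnd1*, which encodes Kv4.1, is on the X chromosome from 7822289 to 7838280. It had the lowest level of the 9 genes, with 3.20, 2.13, 3.23 and 2.73 FPKM in dorsal libraries 1 to 4 and 3.10, 3.61, 3.00 and 3.12 FPKM in ventral libraries 1 to 4. The regions overlapped, and 1 dorsal library was below all the others. Its log2(V/D) was 0.18, and the difference on the log2(FPKM + 1) scale was 0.15 (95% interval −0.10 to 0.39, adjusted p = 0.597, limma).

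**Figure D1:**
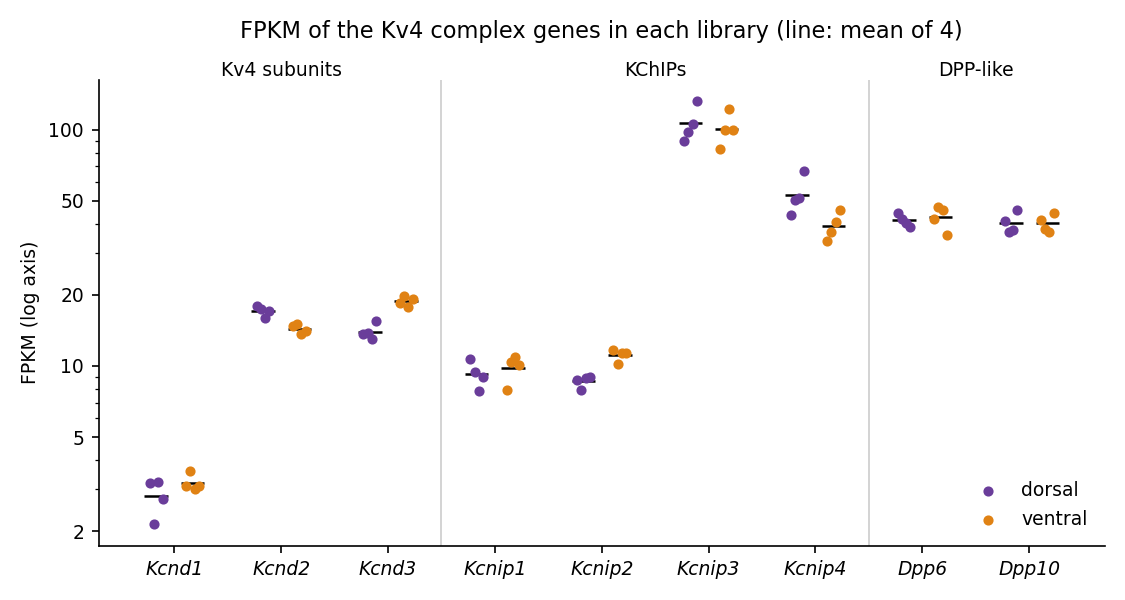
FPKM (log axis) of the 9 genes in each of the 4 dorsal (purple) and 4 ventral (orange) libraries, with points of a group in column order and a line at the mean of 4. The ventral points of *Kcnd3* and *Kcnip2* all lie above the dorsal ones, those of *Kcnd2* all lie below, and the regions overlap for the other 6 genes.

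Within the Kv4 subunits, the gene with the highest FPKM was not the same in the 2 regions. Which gene leads within a region would shift with any gene-specific effect that FPKM does not correct. *Kcnd2* held 51.7%, 52.2%, 49.5% and 48.5% of the summed Kv4 FPKM in dorsal libraries 1 to 4 and 40.5%, 39.3%, 39.6% and 38.7% in ventral libraries 1 to 4. *Kcnd3* held 39.1%, 41.4%, 40.5% and 43.7% dorsally and 50.9%, 51.3%, 51.7% and 52.7% ventrally. *Kcnd2* was thus the largest part in each of the dorsal libraries and *Kcnd3* in each of the ventral ones. The ratio of *Kcnd3* to *Kcnd2* FPKM was 0.817 ± 0.0618 dorsally and 1.31 ± 0.0435 ventrally (SD, n = 4 each), with ranges of 0.756 to 0.901 and 1.26 to 1.36. *Kcnd1* held 8.33% ± 1.61 and 8.80% ± 0.404 (SD, n = 4 each). The summed Kv4 FPKM overlapped between the regions, at 33.9 ± 1.45 dorsally and 36.4 ± 1.57 ventrally (SD, n = 4 each). In RNA of whole tissue, a different number of cells that use a gene and a different amount of its RNA per cell cannot be told apart. No p-value is given for these sums and shares, because they are built from genes chosen with earlier results known.

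Among the KChIPs, *Kcnip2* encodes KChIP2, best known as the partner of Kv4 channels in the heart and also present in cortical neurons. The gene is on chromosome 19 from 45791839 to 45816061. Its FPKM was 8.73, 7.90, 8.89 and 9.0 in dorsal libraries 1 to 4 and 11.7, 10.2, 11.4 and 11.3 in ventral libraries 1 to 4, with no overlap. The mean rose from 8.63 ± 0.499 to 11.2 ± 0.669 FPKM (SD, n = 4 each), 1.29-fold, with a log2(V/D) of 0.37. The difference on the log2(FPKM + 1) scale was 0.34 (standard error 0.07, 95% interval 0.18 to 0.49, adjusted p = 0.0270, limma). This call rested on nearly all of the libraries. When single libraries were dropped it was kept in 1 fit of 8, the one without ventral library 2, and was lost without any 1 of the other 7, with adjusted p between 0.0226 and 0.0935 in limma. The log2(V/D) itself stayed between 0.33 and 0.41 in these fits.

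*Kcnip4* encodes KChIP4, of which a splice form slows the inactivation of Kv4 channels, and its gene spans 1135 kb of chromosome 5, from 48389502 to 49524904. Its FPKM was 43.6, 50.2, 51.4 and 66.9 in dorsal libraries 1 to 4 and 33.8, 36.9, 40.7 and 45.6 in ventral libraries 1 to 4. Ventral library 4 overlapped with dorsal library 1, while the other 3 ventral libraries were below all dorsal ones. The means were 53.0 ± 9.88 and 39.2 ± 5.10 FPKM (SD, n = 4 each). The log2(V/D) of −0.43 was as large in size as that of *Kcnd3*, but the spread between libraries was wider. The coefficient of variation of *Kcnip4* was 18.6% dorsally and 13.0% ventrally, against 7.46% and 4.27% for *Kcnd3*. The difference on the log2(FPKM + 1) scale was −0.42 (standard error 0.13, 95% interval −0.71 to −0.13) and did not pass the test (adjusted p = 0.126, limma). Without dorsal library 4, the highest, the log2(V/D) was −0.30. Exons of *Kcnip4* overlap *5730480H06Rik* and *Gm20700* on the opposite strand, with means of 5.37 and 1.13 FPKM.

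*Kcnip3* encodes KChIP3, also known as calsenilin or DREAM, which binds DNA as a calcium-regulated repressor besides binding Kv4 channels. It is on chromosome 2 from 127456498 to 127522094. It was the most abundant of the 9 genes, above 96.9% of all genes tested by mean FPKM, with 89.8, 98.3, 106 and 132 FPKM in dorsal libraries 1 to 4 and 83.2, 99.5, 122 and 99.4 FPKM in ventral libraries 1 to 4. The regions overlapped widely, with a log2(V/D) of −0.078, and the difference on the log2(FPKM + 1) scale was −0.075 (95% interval −0.38 to 0.23, adjusted p = 0.849, limma). Like *Kcnip4*, it was highest in dorsal library 4 and lowest in ventral library 1, which also had the highest and the lowest summed FPKM over all genes.

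*Kcnip1* encodes KChIP1, which in cortex is found mainly in interneurons. It is on chromosome 11 from 33629339 to 34098554 in the deposited table, where the gene annotation ends it at 33993152. Its FPKM was 10.7, 9.46, 7.85 and 8.96 in dorsal libraries 1 to 4 and 7.89, 10.4, 10.9 and 10.1 in ventral libraries 1 to 4. The lowest library of each region was nearly equal, and the regions overlapped throughout. The log2(V/D) was 0.085, with a difference on the log2(FPKM + 1) scale of 0.075 (95% interval −0.17 to 0.32, adjusted p = 0.810, limma).

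**Figure D2:**
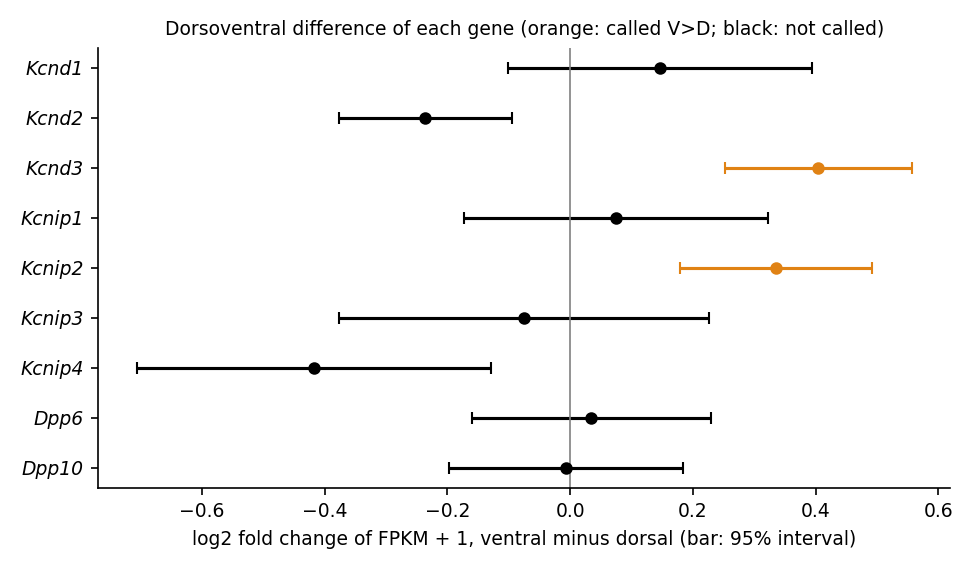
Log2 fold change of FPKM + 1, ventral minus dorsal, for each of the 9 genes (points) with 95% intervals from limma (bars, not adjusted for the number of genes). *Kcnd3* (0.40) and *Kcnip2* (0.34), in orange, were called V>D, whereas the intervals of *Kcnd2* and *Kcnip4* lie below 0 but their adjusted p did not pass 0.05.

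The make-up of the KChIP RNA is given as a description, without a test. Shares of 1 sum are tied to each other, and how often the shares of other families do not overlap was not counted. *Kcnip3* was the largest part in all 8 libraries, between 58.8% and 60.9% of the summed KChIP FPKM dorsally and between 59.7% and 66.0% ventrally. *Kcnip4* held 28.5%, 30.3%, 29.5% and 30.8% in dorsal libraries 1 to 4 and 24.7%, 23.5%, 22.0% and 27.4% in ventral libraries 1 to 4, so that its shares did not overlap although its FPKM did. *Kcnip2* held between 4.14% and 5.71% dorsally and between 6.15% and 8.60% ventrally, also without overlap, and *Kcnip1* between 4.12% and 7.00% and between 5.78% and 6.60%. The ratio of *Kcnip4* to *Kcnip2* FPKM was 6.14 ± 1.03 dorsally and 3.53 ± 0.481 ventrally (SD, n = 4 each), with ranges of 5.0 to 7.44 and 2.88 to 4.04. The ratio of *Kcnip3* to *Kcnip4* was 2.01 ± 0.0554 and 2.58 ± 0.349 (SD, n = 4 each). The summed KChIP FPKM was 178 ± 27.9 dorsally and 161 ± 20.2 ventrally (SD, n = 4 each), and the regions overlapped.

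**Figure D3:**
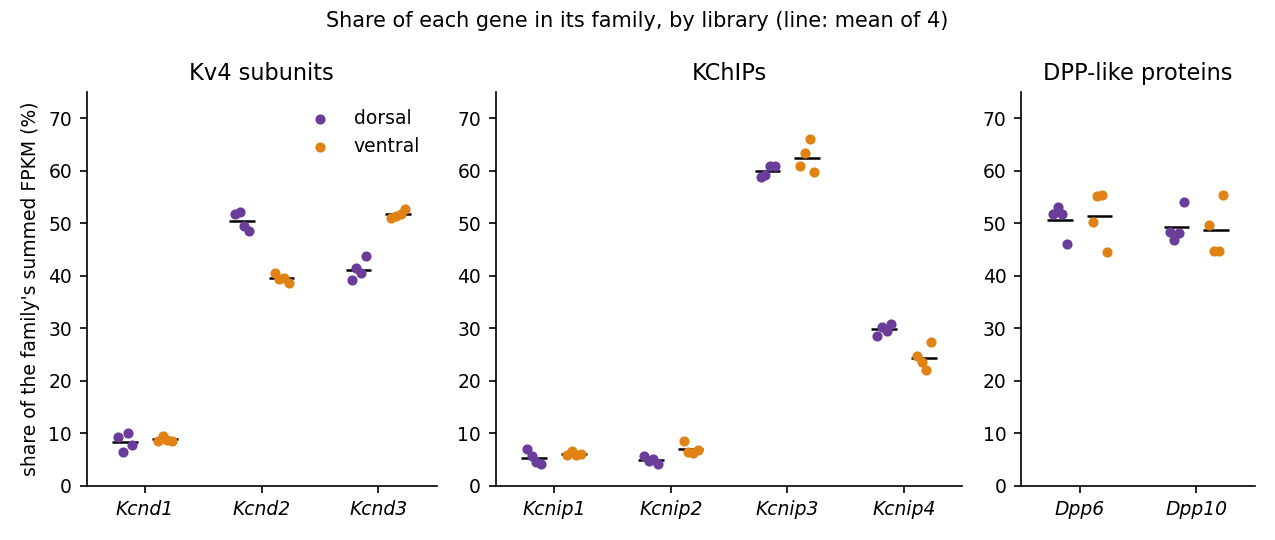
Share (%) of each gene in the summed FPKM of its family, for the Kv4 subunits, the KChIPs and the DPP-like proteins, in the 4 dorsal (purple) and 4 ventral (orange) libraries, with a line at the mean of 4. *Kcnd2* leads in dorsal and *Kcnd3* in ventral libraries, *Kcnip4* has a lower and *Kcnip2* a higher share ventrally, and the DPP-like shares overlap.

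For the DPP-like genes no regional difference was detected. *Dpp6*, on chromosome 5 from 26817203 to 27727505, had 44.2, 42.0, 40.3 and 38.9 FPKM in dorsal libraries 1 to 4 and 41.9, 46.9, 45.6 and 35.8 FPKM in ventral libraries 1 to 4. *Dpp10*, on chromosome 1 from 123332142 to 124046412 in the deposited table (123321471 to 124045559 in the gene annotation), had 41.3, 37.1, 37.5 and 45.7 FPKM dorsally and 41.4, 38.0, 36.8 and 44.5 FPKM ventrally. Both genes overlapped fully between the regions. The log2(V/D) was 0.042 for *Dpp6* and −0.0077 for *Dpp10*, with 95% intervals on the log2(FPKM + 1) scale of −0.16 to 0.23 (adjusted p = 0.898, limma) and −0.20 to 0.18 (adjusted p = 0.984, limma). As ratios of ventral to dorsal FPKM + 1, the bounds of these intervals were 0.895 and 1.17 for *Dpp6* and 0.872 and 1.14 for *Dpp10*. The sign of the *Dpp10* difference turned under 2 other scalings of the libraries. The 2 genes were near each other in level, with *Dpp6* holding 50.7% ± 3.18 of their sum dorsally and 51.4% ± 5.10 ventrally (SD, n = 4 each).

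By mean FPKM over the 8 libraries the genes fell into steps. *Kcnip3*, with 104 FPKM, was above *Kcnip4* (46.1) in 8 of 8 libraries, and their ranges did not overlap. *Kcnip4*, *Dpp6* (42.0) and *Dpp10* (40.3) overlapped in range as neighbours, and *Kcnip4* was above *Dpp6* in 4 of 8 libraries. *Dpp10* was 2.46 times the next gene, *Kcnd3* (16.4), with no overlap. *Kcnd3* and *Kcnd2* (15.8) overlapped and changed places between the regions. *Kcnip2* (9.89) and *Kcnip1* (9.52) overlapped as well, and *Kcnd1* (3.02) was below every other gene in 8 of 8 libraries. The accessory genes of each family thus exceeded the pore subunits in summed FPKM in every library, since the KChIPs summed to at least 137 FPKM and the DPP-like genes to at least 77.8 FPKM, whereas the Kv4 subunits summed to at most 38.4 FPKM.

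The difference of each gene was also tested alone, by an exact permutation test over the 70 assignments of the 8 libraries to regions (two-sided, on mean FPKM). This test takes the libraries as freely exchangeable. It ignores that both regions came from the same 4 sets of mice, because the pairing is not given. For *Kcnd2*, *Kcnd3* and *Kcnip2* the unadjusted exact permutation p was 0.0286, the smallest that 4 against 4 libraries allow. Every gene whose regions do not overlap reaches this p. For these genes it therefore only restates the lack of overlap given above and adds no further evidence. Of all genes tested, 11.1% had no overlap in either direction. For *Kcnip4* the p was 0.0571 in the same exact permutation test, and for the other 5 genes it lay between 0.286 and 0.886.

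**Figure D4:**
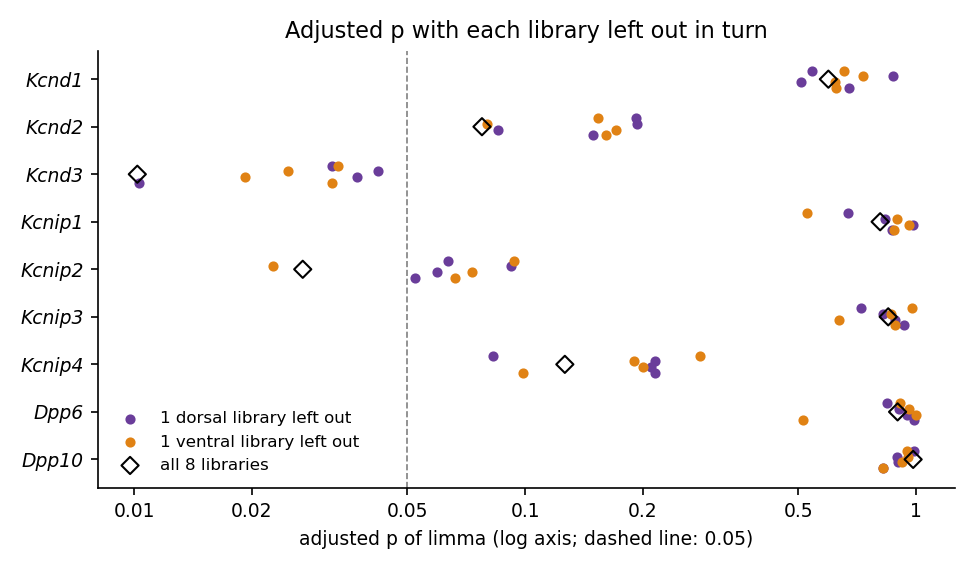
Adjusted p of limma (log axis, dashed line at 0.05) for each gene with all 8 libraries (diamonds) and with 1 dorsal (purple) or 1 ventral (orange) library left out. *Kcnd3* stays under 0.05 in 8 of 8 fits and *Kcnip2* in 1 of 8, and no other gene is under 0.05 in any fit.

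Other genes known to act on Kv4 channels were counted next. In a list of 17 such genes (MinK-related and Kvβ subunits, scaffolds, kinases and their anchor, a kinesin and others), 12 were tested and 0 were called in either direction by limma, where 3.6% of all genes tested were called, and the median log2(V/D) was −0.0085. An unadjusted p under 0.05 in limma was reached by 3 of the 12 (*Mapk3*, *Kcnab1* and *Kcnab2*), or 25.0%, against 16.0% of all genes tested. The largest difference in the list was that of *Mapk3*, the kinase ERK1 of the pathway that phosphorylates Kv4.2, with 94.6 ± 5.61 FPKM dorsally and 119 ± 18.5 FPKM ventrally (SD, n = 4 each, adjusted p = 0.163, limma). It was called V>D without ventral library 2 (adjusted p = 0.0272, limma) and in none of the other 7 fits without 1 library. The Kvβ subunit genes *Kcnab1* and *Kcnab2* had log2(V/D) of −0.25 and −0.24 (adjusted p = 0.208 and 0.165, limma). These 3 genes were named after their values were seen. The 5 genes not tested were MinK-related subunits.

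The relatives of the accessory proteins were compared in the same way. Of 9 neuronal calcium sensors related to the KChIPs, 6 were tested, 1 was V>D, 1 was D>V and 4 were not called, with a median log2(V/D) of −0.08. Of all genes tested, 1.45% were V>D and 2.15% were D>V. *Hpcal4*, a visinin-like sensor, rose from 163 ± 14.5 to 216 ± 14.7 FPKM (SD, n = 4 each) with a log2(V/D) of 0.40 (adjusted p = 0.0241, limma), and *Hpca*, which encodes hippocalcin, fell from 117 ± 7.88 to 94.8 ± 3.94 FPKM (SD, n = 4 each) with a log2(V/D) of −0.31 (adjusted p = 0.0346, limma). Neither call held in every alternative. *Hpcal4* was called in 3 of 8 fits without 1 library, and lost without dorsal library 2 or 3 or ventral library 1, 3 or 4, with adjusted p of up to 0.0699 in limma. *Hpca* was called in 1 of 8, the fit without dorsal library 1, with adjusted p of up to 0.12 in limma. With all 8 libraries the *Hpca* call was also lost when they were brought to the same summed FPKM (adjusted p = 0.119, limma) and under quantile normalization (adjusted p = 0.0791, limma), whereas *Hpcal4* was called under both. Of the 4 enzymatically active relatives of the DPP-like proteins, 3 were tested and 0 were called, against 3.6% of all genes tested, with a median log2(V/D) of −0.07.

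The genes whose log2(FPKM + 1) followed a called gene most closely over the 8 libraries were taken by Pearson's r, as a description, since any gene with a regional difference shares that pattern. For *Kcnd3* these were *Traip* (r = 0.98), *Vcam1* (r = 0.97), a cell adhesion molecule, and *Zfp831* (r = 0.97), each of them V>D. *Traip*, a ubiquitin ligase, was near the filter of 1 FPKM, with means of 1.12 FPKM dorsally and 1.94 FPKM ventrally. For *Kcnip2* the closest genes included *Thra* (r = 0.99), the thyroid hormone receptor alpha, and *Foxo6* (r = 0.98), a forkhead transcription factor, both V>D.

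Markers of several cell types moved with region alongside these genes. Of all genes tested, 1.45% were V>D and 2.15% were D>V, and no such share was taken for the sums below. Of 6 oligodendrocyte markers 6 were D>V, and their summed FPKM was 473 to 642 dorsally and 253 to 362 ventrally. Of 8 GABAergic markers 1 was V>D (*Sst*, from 109 ± 29.4 to 220 ± 41.1 FPKM, SD, n = 4 each), 1 was D>V (*Pvalb*, from 15.7 ± 2.15 to 6.63 ± 0.961 FPKM, SD, n = 4 each) and 6 were not called. Their sum was 241 to 313 FPKM dorsally and 319 to 411 FPKM ventrally. Its largest part, *Sst*, alone was 81.5 to 150 and 169 to 262 FPKM. Among the markers not called, *Gad1* was lower ventrally (59.6 to 63.5 and 50.3 to 58.4 FPKM). *Gad2* was higher ventrally (60.7 to 63.9 and 64.3 to 72.1 FPKM). *Sst* was not called without dorsal library 2 (adjusted p = 0.0553, limma). Of 6 glutamatergic markers 1 was D>V (*Slc17a6*) and 5 were not called, with overlapping sums of 253 to 284 and 234 to 259 FPKM. Of 2 leptomeningeal markers tested 1 was V>D (*Dcn*), with sums over 3 genes of 23.7 to 32.6 and 45.3 to 59.6 FPKM. Most of these sums was *Dcn* itself (21.4 to 30.8 and 42.8 to 57.7 FPKM). *Lum* (1.06 to 1.64 and 1.16 to 2.56 FPKM), not called, and *Col1a1* (0.690 to 1.12 and 0.719 to 1.49 FPKM), not tested, overlapped between the regions. The sums of astrocyte markers (154 to 164 and 171 to 185 FPKM), microglial markers (38.5 to 41.7 and 43.1 to 47.6 FPKM) and oligodendrocyte precursor markers (14.8 to 16.0 and 17.3 to 17.7 FPKM) did not overlap between the regions. In these lists 0 genes were called by limma, and not all moved with their sum. The means of *Aldh1l1* (log2(V/D) −0.020) among astrocyte markers and of *Aif1* (−0.16) and *Tmem119* (−0.013) among microglial ones were lower ventrally. Those of the rest of these lists were higher. Endothelial sums overlapped (12.1 to 16.4 and 8.67 to 13.2 FPKM), with 0 of 4 called. Of 3 layer II markers, *Calb1* was V>D (called in 3 of 8 fits without 1 library, and lost without any 1 dorsal library or ventral library 4), *Wfs1* was D>V and *Reln* was not called. No gene of these marker lists was at 0 in any library. The part of these cell types in the differences of the Kv4 complex genes was not tested.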

How the data were processed

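RNA-Seq was measured in 4 dorsal and 4 ventral MEC samples. The submitters' processing notes name CASAVA 1.8, TopHat2 2.0.8 and Cuffdiff, and the study's methods name the genes of Ensembl release 73. The deposited FPKM are the authors' values, 1 per gene and library. A table of estimated fragments names its rows by condition and number, which match no sample label, so its 4 columns were left aside and no test on fragment counts was made. The authors' columns of fold change, p-value and q-value were not used. The number of fragments behind each FPKM is therefore not given, and no counting interval can be stated.

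Libraries were assigned to regions as stated in the report, and no pairing of pools is given. Genes that had enough alignments by the authors' status and a mean FPKM of at least 1 were compared on log2(FPKM + 1). The tool was limma 3.58.1 (R 4.3.3) with a trend of variance on level and Benjamini-Hochberg adjustment over all genes tested, and the fit was also tested on simulated data. Fold changes on this scale understate those of low genes. Python 3.11.15, NumPy 2.4.6, SciPy 1.17.1, pandas 2.3.3 and matplotlib 3.10.9 were used. Gene positions are those of the deposited table, exon overlaps those of GENCODE M21, also on GRCm38.

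The 9 genes and the lists were chosen with earlier results of these data known. Named genes are the 9, the called genes of the lists and the 3 genes most like each called member. Some of these are not reported here. Alternatives covered the constant added, filters, scaling, sample weights, the ratio threshold, the assignment of regions and leaving out each library.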

Additional observations from a re-analysis of the deposited data

How the results depend on the processing

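Under each of the 10 alternatives of constant, filter, scaling, weights and ratio threshold, *Kcnd3* and *Kcnip2* were V>D, with adjusted p between 0.00605 and 0.0124 and between 0.0152 and 0.0305 (limma), and no other gene of the complex was called. The alternative without a ratio threshold reuses the main fit, so these calls could not be lost there. A minimum mean of 5 FPKM left *Kcnd1* out of the test. The log2(V/D) of *Dpp10* changed sign when libraries were brought to the same summed FPKM (0.042) and under quantile normalization (0.020), at adjusted p of 0.870 and 0.936 (limma). The same summed FPKM also gave 195 D>V genes in place of 294, against 201 V>D genes, and shifted the median difference over all genes on the log2 scale from −0.0058 to 0.037. With only the 4 libraries whose headers name the same region, 2 against 2, limma called 0 genes in either direction (1232 at an unadjusted p under 0.05), with a log2(V/D) of 0.54 for *Kcnd3* (adjusted p = 0.331), 0.29 for *Kcnip2* (adjusted p = 0.574), 0.022 for *Kcnip3*, −0.031 for *Dpp6* and 0.066 for *Dpp10*. With the regions that the headers name, limma called 0 V>D genes and 1 D>V gene (721 at an unadjusted p under 0.05), and log2(V/D) was −0.11 for *Kcnd1*, 0.032 for *Kcnd2*, 0.11 for *Kcnd3* (adjusted p = 0.964), −0.086 for *Kcnip2* (adjusted p = 0.969), 0.10 for *Kcnip3*, 0.24 for *Kcnip4*, −0.073 for *Dpp6* and 0.074 for *Dpp10*. Under those regions the ventral minus dorsal difference in share, in percentage points, was −1.09 for *Kcnd1*, −0.64 for *Kcnd2*, 1.74 for *Kcnd3*, −0.84 for *Kcnip2*, −0.80 for *Kcnip3* and 1.82 for *Kcnip4*, and that in summed KChIP FPKM was 14.5. The cause was not tested.

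Without 1 library at a time, limma called 91 to 191 V>D genes and 157 to 341 D>V genes. The lowest of both came without dorsal library 2, and 91 V>D genes also without ventral library 1. The log2(V/D) lay between 0.072 and 0.26 for *Kcnd1*, −0.29 and −0.23 for *Kcnd2*, 0.40 and 0.48 for *Kcnd3*, 0.01 and 0.18 for *Kcnip1*, 0.33 and 0.41 for *Kcnip2*, −0.18 and 0.043 for *Kcnip3*, −0.52 and −0.30 for *Kcnip4*, −0.0086 and 0.12 for *Dpp6* and −0.060 and 0.057 for *Dpp10*. No paired analysis was possible because, although both regions came from the same 4 sets of mice, the sources do not say which dorsal and ventral libraries share mice. The p-values measure the spread between pools of animals, and the fragments behind each FPKM are not known here, so the precision of low genes such as *Kcnd1* cannot be separated into counting and biological parts.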

Other observations

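The balance between families was also read per library, as a description. The ratio of summed KChIP to summed Kv4 FPKM was 5.23 ± 0.742 dorsally and 4.45 ± 0.694 ventrally (SD, n = 4 each), with overlapping ranges of 4.39 to 6.15 and 3.76 to 5.36. The ratio of summed DPP-like to summed Kv4 FPKM was 2.41 ± 0.0359 dorsally and 2.27 ± 0.0842 ventrally (SD, n = 4 each). It varied by much less between libraries than the KChIP ratio, and its ranges of 2.37 to 2.45 and 2.21 to 2.39 overlapped only because ventral library 3 lay above dorsal library 2.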
